A study of Bos taurus with 8 samples.

Results

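Genes named ZNF followed by a number encode zinc finger proteins, and 258 of them, read by 353 probes, were on a bovine embryo array hybridised with RNA from blastocysts grown in the uterus or in the laboratory. Members were all probes whose symbol in the platform annotation began with ZNF and a digit. The whole array held 43795 probes and 15229 gene symbols. Of the 258 member symbols, 244 are current symbols of the bovine ARS-UCD2.0 annotation and 14 are older names, among them ZNF828, now CHAMP1, and ZNF259, now ZPR1. The ratio used throughout is log2 of in vitro over in vivo signal, so a value above 0 means more signal in the laboratory-grown embryos.

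Most ZNF proteins fold around zinc through repeated cysteine and histidine pairs, and the fingers read DNA sequence. Many carry a KRAB box, a short domain that binds the corepressor TRIM28 and through it the histone methyltransferase SETDB1, which together silence transposable elements and imprinted loci in mammalian early embryos. Others lack the KRAB box and work in chromatin complexes, as activators, or away from DNA, on the spindle, on RNA or on ribosomes. Such genes are known for low transcript levels, and many lie in clusters of closely related copies. The probes' cross-hybridisation between copies was not tested, as no probe sequence was used.

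The in vivo embryos were recovered on day 7 after insemination from Holstein heifers or cows. Follicles wider than 8 mm had been removed, FSH was given in 8 injections falling from 60 to 20 mg (400 mg in all), and a 500 µg dose of a prostaglandin F2α analogue went with each of the last injections. Inseminations followed oestrus by 12 and 24 h, and the uterus was flushed 7.5 days after the first. The in vitro embryos came from oocyte complexes aspirated from follicles of 2 to 6 mm, matured, fertilised and cultured for 168 h. The labels describe these oocytes both as collected by ovum pick-up and as taken from slaughterhouse ovaries. Semen was the same pool in both kinds. The number of embryos per sample is not stated in the labels, and RNA was amplified before labelling. The design gives 4 biological replicates of each kind, each replicate pair measured on 2 arrays with the dyes exchanged, 8 arrays in all. Slide 58 carried the in vitro RNA in Cy5 and slide 61 carried the in vivo RNA in Cy5, so slide and dye cannot be told apart. In whole embryos, fewer cells of a type and less RNA per cell cannot be told apart either.

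Of 12 markers of trophectoderm, inner cell mass and primitive endoderm, 11 were on the array, and both kinds of embryo showed 10 of them on every array. The exception, CDX2, was detected on 6 of 8 arrays in vitro. Of the 11, 5 were called lower in vitro, NANOG (-1.77), KRT18 (-1.46), TFAP2A (-1.41), HNF4A (-1.02) and PDGFRA (-0.74), and 1 higher, TFAP2C (0.67). These are 45.5% and 9.09%, against 11.1% lower and 8.1% higher of all tested genes. Without replicate 2, 7 were lower and 1 higher, where 19.2% of all tested genes were lower and 14.9% higher. The ZNF and cofactor changes described here moved beside these markers of the embryo's own cell types, whose part in them was not tested. Among markers of cumulus, blood, oviduct and uterus, and sperm, MUC1 and TNP1 were called, both lower in vitro, of 11 tested. Of all tested genes, 11.1% were called lower. Replicate 2 stood apart: its log2 ratios correlated at 0.39 to 0.46 with those of the other replicates over all tested probes, while replicates 1, 3 and 4 correlated at 0.80 to 0.82 with each other. Counts of called genes are therefore also given without replicate 2, an alternative added for the gene lists after the data were seen.

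ZNF probes were detected about as often as the probes of the array as a whole. Detection required a signal above that of 95% of the 153 negative control spots in the same channel, and a probe was tested where it was detected on every array in vitro, in vivo or both. Of the 353 ZNF probes, 175 (49.6%) were detected on every array in both kinds, against 48.8% of all probes. Another 23 were detected on every array in vivo but not in vitro, and 6 the other way round, 6.52% and 1.70% against 5.23% and 2.57% of all probes. No array detected 41 of the probes (11.6%, against 10.9% of all). That left 204 tested probes of 164 genes, while 94 genes had no tested probe and 22 had no probe detected anywhere. The 204 are 57.8% of ZNF probes, against 56.6% of all probes and 61.2% of probes with a gene symbol. The share of ZNF probes detected per array ran from 63.5% to 75.9% in vitro and from 60.6% to 81.6% in vivo. On slide 58 it was higher in vivo in all 4 replicates. On slide 61 it was higher in vitro in replicates 1, 3 and 4 and higher in vivo in replicate 2.

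The level of a probe is its log2 signal over the median negative control spot of the same channel. Each gene is represented by its brightest tested probe. Levels of the 164 tested genes ran from 0.16 to 6.01 in vitro, with a median of 1.29, and from 0.19 to 5.77 in vivo, with a median of 1.33. Over all 10188 tested genes, which are read by other probes, the medians were 1.47 and 1.57. The 5 highest levels in vitro were those of ZNF281 (6.01 ± 0.59, SD, n = 4), ZNF93 (5.95 ± 0.67), ZNF207 (5.56 ± 0.63), ZNF280B (5.37 ± 0.30) and ZNF175 (4.40 ± 0.33). In vivo, ZNF93 stood at 5.77 ± 0.37, ZNF281 at 5.37 ± 0.52, ZNF207 at 4.74 ± 0.40, ZNF394 at 4.72 ± 0.50 and ZNF345 at 4.35 ± 0.45. These levels describe single probes, and they do not order the genes by transcript abundance. Of these genes, ZNF93 is known in primates for repressing LINE-1 elements.

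**Figure D1:**
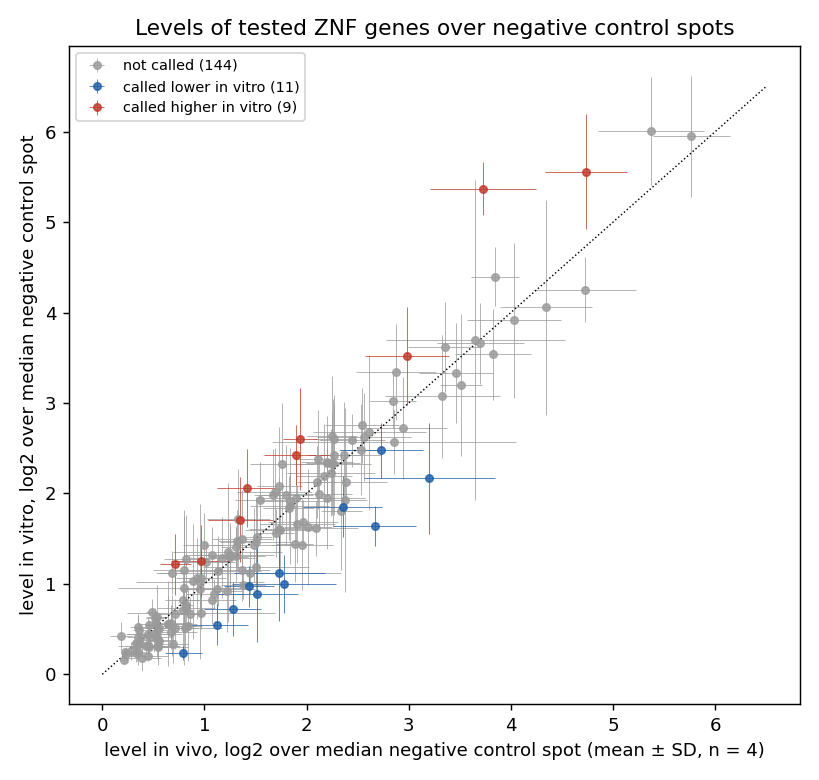
Mean level in vitro (vertical axis) against in vivo (horizontal axis) of the 164 tested ZNF genes, in log2 units over the median negative control spot, with bars for the SD over 4 replicates and a dotted line of equal levels. Most points lie below 3 on both axes. The 11 genes called lower in vitro have levels of at most 2.48 in vitro and 3.20 in vivo. The 9 called higher run from 1.22 to 5.56 in vitro and from 0.71 to 4.74 in vivo.

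Between the 2 kinds of embryo, 20 of the 164 tested ZNF genes changed, 9 higher and 11 lower in vitro. The test was limma over 4 replicates with Benjamini-Hochberg adjusted p under 0.05 across all 24775 tested probes. These are 12.2% of the tested ZNF genes, 5.49% higher and 6.71% lower. Among all 10188 tested genes 19.2% were called, 8.1% higher and 11.1% lower. By probes, 11 ZNF probes were called higher and 12 lower of 204, against 7.01% and 8.8% of all tested probes. Before adjustment, 59 ZNF genes (36.0%) had p under 0.05, close to the 35.5% of all genes. The called ZNF genes were detected on all 8 arrays in both kinds.

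Most ratios of the members were small, about as in all genes. The median log2 ratio of the 164 genes was -0.0027, against -0.014 for all genes, and 82 lay above 0. The median size of the ratio, whatever its sign, was 0.18 for ZNF genes and 0.19 for all genes, with median standard errors of 0.10 in both. A ratio of 2-fold or more in either direction was reached by 3 ZNF genes, ZNF280B, ZNF592 and ZNF219. The ratio had 1 direction on all 8 arrays for 29 of the 164 (17.7%), against 22.8% of all genes.

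Counts of calls depended on the replicates. Without replicate 2, 29 ZNF genes were called higher and 20 lower, 29.9% of those tested against 34.0% of all genes. All 20 genes called over the 4 replicates were among them in the same direction. Without replicate 1 no ZNF gene was called by limma, although 20 higher and 21 lower had unadjusted p under 0.05, and calls over all genes fell to 3.71%. Without replicate 3, 4 were called (2.44%, against 4.47% of all genes), and without replicate 4, only ZNF526 (0.61%, against 2.47%). When the 8 arrays were fitted with the replicate number as a block and a dye term, 26 ZNF genes were called higher and 19 lower (27.4%, against 29.0% of all genes).

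ZNF280B rose most among the tested ZNF genes. It belongs to a small family related to the Drosophila insulator protein suppressor of Hairy-wing. Its level in replicates 1 to 4 was 5.19, 5.20, 5.81 and 5.28 in vitro and 3.55, 3.42, 4.50 and 3.44 in vivo. Every in vitro level lay above every in vivo level. The log2 ratios were 1.31, 2.54, 0.83 and 1.63, with a mean of 1.58 ± 0.28 (SE), 2.99-fold, and limma's adjusted p was 0.026. The rise was seen on all 8 arrays, from 0.64 to 2.42 on slide 58 and from 1.01 to 2.67 on slide 61. Its relatives ZNF280C (0.19, adjusted p = 0.27) and ZNF280D (0.25, adjusted p = 0.14), named here after their values were seen, did not pass the test.

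ZNF207, also called BuGZ, which binds the checkpoint protein BUB3 and helps chromosomes align on the spindle in human cells, rose 1.66-fold. Its levels were 5.44, 4.85, 6.38 and 5.56 in vitro and 4.39, 4.65, 5.31 and 4.59 in vivo. Each replicate was higher in vitro, although the ranges of levels overlapped. The log2 ratios of 0.71, 0.91, 0.58 and 0.73 averaged 0.73 ± 0.07, with an adjusted p of 0.0086 in limma.

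The other rises on all 8 arrays were smaller. ZNF677, a KRAB protein whose gene is silenced by methylation in human lung cancers, had log2 ratios of 0.63, 0.44, 1.08 and 0.75, and a mean of 0.72 ± 0.12 (adjusted p = 0.020 in limma). ZNF696 had 0.79, 0.85, 0.57 and 0.68, a mean of 0.72 ± 0.07 (adjusted p = 0.0083). Replicate 3 was the highest for ZNF677 and the lowest for ZNF696. The KRAB genes ZNF34 (0.60 ± 0.12), ZNF75D (0.59 ± 0.07) and ZNF79 (0.54 ± 0.10) followed, with adjusted p of 0.035, 0.010 and 0.029. ZNF75D encodes a SCAN domain beside its KRAB box in humans, a module through which such proteins pair. The replicates of these 3 genes ran from 0.25 to 0.94, 0.50 to 0.74 and 0.29 to 0.81, all above 0.

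ZNF592 and ZNF219 fell most among the tested ZNF genes. ZNF592 is a partner of ZMYND8 and ZNF687 in a chromatin complex of human cells. Its levels were 1.71, 2.11, 3.05 and 1.80 in vitro and 2.43, 3.36, 3.97 and 3.04 in vivo. Each replicate was lower in vitro, although replicate 3 in vitro exceeded replicates 1 and 4 in vivo. The log2 ratios were -1.01, -0.54, -1.30 and -1.41, mean -1.06 ± 0.16, with adjusted p = 0.017 in limma, and the signal was 2.09-fold higher in vivo. ZNF687 was not tested, being detected on at most 2 arrays of a kind.

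ZNF219, a cofactor of SOX9 in mouse cartilage cells, was 2.06-fold higher in vivo. Its levels were 1.65, 1.44, 1.95 and 1.53 in vitro and 2.44, 2.82, 3.16 and 2.25 in vivo, so the groups did not overlap. The log2 ratios of -1.07, -0.74, -1.51 and -0.86 averaged -1.04 ± 0.14 (adjusted p = 0.013 in limma).

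A further 7 genes fell on all 8 arrays. ZNF408, mutated in human inherited retinal disease, had log2 ratios of -0.72, -0.36, -1.12 and -0.90, mean -0.78 ± 0.14 (adjusted p = 0.024 in limma). ZNF7, a KRAB gene, had -0.35, -1.22, -0.48 and -0.65, mean -0.67 ± 0.16, and with an adjusted p of 0.0498 it only just passed. Replicate 2 was the least changed for ZNF408 and the most changed for ZNF7. ZNF526 fell by 0.64 ± 0.08, and ZNF318, an androgen receptor partner that in mouse B cells also controls processing of immunoglobulin D transcripts, fell by 0.59 ± 0.05. ZNF174, a SCAN-domain repressor, and ZNF503, a repressor of the NET family studied in vertebrate hindbrain and striatum, each fell by 0.58, with standard errors of 0.08 and 0.07. Levels of ZNF503 (0.24) and ZNF318 (0.55) in vitro lay near those of the negative control spots. In vivo they were 0.79 and 1.12. The imprinted gene ZNF331 is described with its role list.

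**Figure D2:**
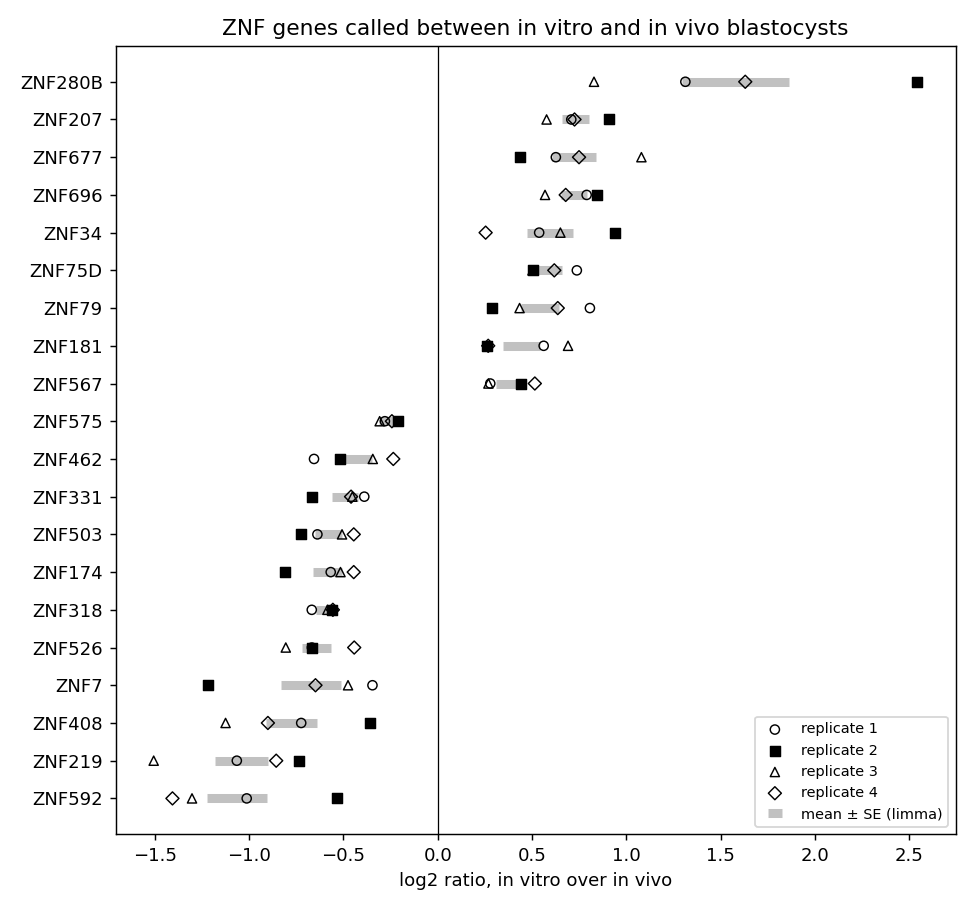
Log2 ratio, in vitro over in vivo, of the 20 called ZNF genes in each replicate (symbols, replicate 2 filled) with the limma mean ± SE as grey bars. All 4 replicates of each gene lie on the same side of 0, and replicate 2 is the extreme point of ZNF280B (2.54) and ZNF7 (-1.22).

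The remaining 4 called genes did not keep 1 direction on all 8 arrays, and ZNF567, ZNF181 and ZNF575 are named here after their values were seen. The KRAB gene ZNF181 had a mean log2 ratio of 0.45 ± 0.10 (adjusted p = 0.042 in limma), 0.73 on slide 58 and 0.16 on slide 61. The KRAB gene ZNF567 had 0.38 ± 0.07 (adjusted p = 0.027), 0.70 on slide 58 and 0.05 on slide 61. ZNF575 had -0.26 ± 0.05 (adjusted p = 0.035), but its 4 arrays of slide 58 lay between -1.21 and -0.94 and its 4 arrays of slide 61 between 0.38 and 0.78. Its direction therefore differed between the dye orientations, and only their mean was negative. The fourth gene, ZNF462, was lower on 7 arrays. With the replicate block, ZNF567 (adjusted p = 0.18) and ZNF575 (adjusted p = 0.31) were no longer called.

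**Figure D3:**
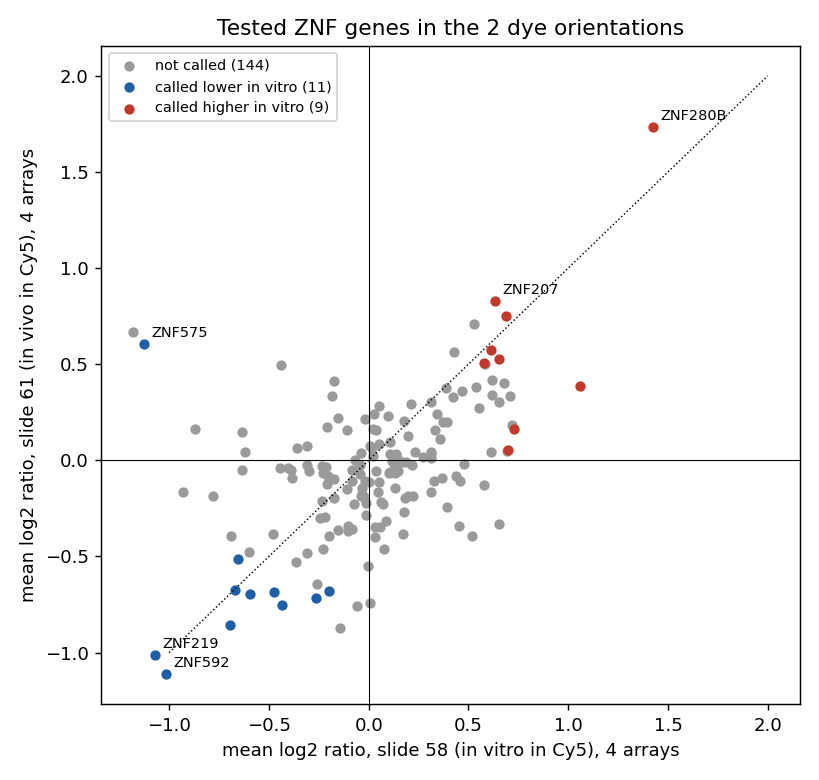
Mean log2 ratio of each of the 164 tested ZNF genes on slide 61 (vertical axis, 4 arrays) against slide 58 (horizontal axis, 4 arrays), with a dotted line of equal values. ZNF280B, ZNF207, ZNF592 and ZNF219 lie near that line, while ZNF575 lies at -1.13 on slide 58 and 0.60 on slide 61.

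Across the family, the slide means had opposite signs for 54 of the 164 tested genes (32.9%), against 41.9% of all tested genes. Without replicate 2 it was 67 (40.9%), against 40.5% of all. The median ratio of the ZNF genes was 0.035 on slide 58 and -0.052 on slide 61. Within slide 58, with its 4 arrays as replicates, 29 were called higher and 20 lower, 29.9% against 31.4% of all genes. Within slide 61, 12 were higher and 19 lower, 18.9% against 28.1%.

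Many of the gene calls rest on 1 probe. Of the 33 ZNF genes with several tested probes, 17 had all their ratios on the same side of 0, and the median distance between the highest and lowest ratio was 0.28. A called probe was present in 9 of them, and in none of the 9 were all probes called. Without replicate 2, 17 had a called probe, and in 2 of them all tested probes were called the same way. Probes called in opposite directions did not occur in these genes. No matching counts over all genes are given, so whether such differences between probes are particular to ZNF genes cannot be told. The brighter ZNF207 probe read 0.73, and the other, at a level of 0.68 in vitro, read 0.21 ± 0.12 (adjusted p = 0.35 in limma). For ZNF34 the second probe read -0.03 ± 0.07 and for ZNF677 it read 0.05 ± 0.14. For ZNF79 it read -0.21 ± 0.13. The other probes of ZNF408 read 0.01 and 0.13, against -0.78 for the called one. ZNF318 kept its direction, at -0.59 and -0.20. In these 6 genes the uncalled probes were the dimmer ones in both kinds of embryo, and a gene is counted by its brightest probe.

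In ZNF382 and ZNF583 a dimmer probe was called higher while the brightest was not, so neither is counted among the 20. ZNF382, a KRAB repressor silenced in some human tumours, read 0.58 ± 0.09 at the called probe (adjusted p = 0.016 in limma) and 0.46 and 0.35 at the others. The probes of ZNF583, a KRAB gene, lay furthest apart of the 33 genes. The called probe read 0.54, 0.80, 0.66 and 0.77 in replicates 1 to 4, mean 0.70 ± 0.07 (adjusted p = 0.0079). The brightest read 0.14, -1.50, 0.28 and -0.06, mean -0.29 ± 0.32 (adjusted p = 0.66). Those probes differed mainly in replicate 2.

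**Figure D4:**
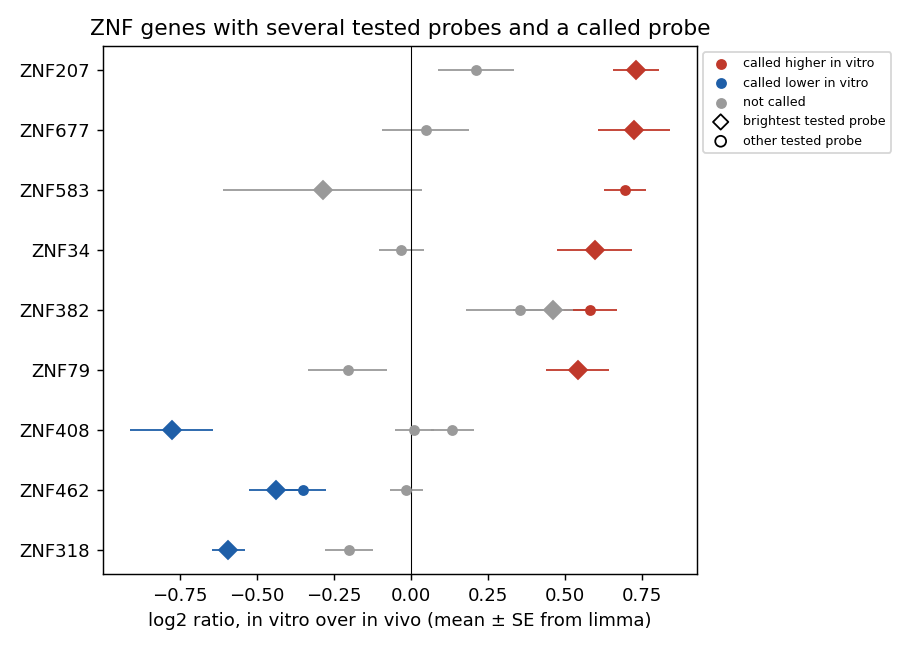
Log2 ratio with its standard error of every tested probe of the 9 ZNF genes that have several tested probes and a called one, with diamonds for the brightest probe and circles for the others. In ZNF408, ZNF34, ZNF79 and ZNF583 the probes of 1 gene lie on both sides of 0.

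The list of members with roles on the spindle, RNA, ribosomes and elsewhere had 10 tested genes, of which 1, ZNF207, rose and none fell, with or without replicate 2. That is 10% called, against 19.2% of all genes with replicate 2 and 34.0% without it. ZNF830, a splicing-associated protein, had ratios of 0.20, 1.07, 0.56 and 0.26, all above 0, but at 0.52 ± 0.16 its adjusted p was 0.10 in limma. ZNF259 (ZPR1, which binds the elongation factor eEF1A) had -0.09 ± 0.07 and ZNF622, whose yeast counterpart matures the large ribosomal subunit, -0.10 ± 0.12. ZNF593, which also has a ribosome-assembly counterpart in yeast, had 0.10 ± 0.15. The double-stranded RNA binder ZNF346 had -0.27 ± 0.16 and the nuclear protein ZNF638, also called NP220, -0.28 ± 0.21. In ZNF346 and ZNF638, replicate 2 lay at -0.83 and -1.02 and the others between -0.28 and 0.12. ZNF277 (0.15), ZNF330 (-0.10) and ZNF511 (-0.01) make up the list. The median ratio of the 10 was -0.048.

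Chromatin and transcription complexes were represented by 18 members on the array and 11 tested, of which ZNF592 and ZNF219 fell and none rose. The 18.2% called is close to the 19.2% of all genes. Without replicate 2, 3 were lower and 1, ZNF326, higher, 36.4% called against 34.0% of all genes. The median of the 11 ratios was -0.22, and the medians within replicates were -0.046, 0.0041, -0.0034 and -0.16, all nearer to 0. Without replicate 2 the median was -0.082. ZNF532, a relative of ZNF592, had -0.42, 0.00, -0.64 and -0.32, mean -0.34 ± 0.11, and did not pass (adjusted p = 0.12 in limma). It was called lower without replicate 2 (-0.46, adjusted p = 0.020). Over all replicates the same probe averaged -0.64 on slide 58 and -0.05 on slide 61. Another tested probe of ZNF532 read 0.21 and was not called. ZNF644, which recruits the methyltransferases EHMT1 and EHMT2 in human cells, had 0.29 ± 0.10 (adjusted p = 0.14). ZNF326, of the DBIRD complex that joins elongation to splicing, had 0.23 ± 0.08 (adjusted p = 0.13). ZNF131 (-0.24), ZNF384 (-0.15), ZNF410 (-0.04), ZNF516 (-0.22), ZNF518A (0.09) and ZNF518B (-0.48) did not pass either. ZNF518B had ratios of 0.04, -1.65, 0.03 and -0.36, so its mean rested on replicate 2.

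Genes tied to pluripotency and early development gave 5 tested members of 12 on the array, and 1 of them, ZNF462, fell. That is 20% called, close to the 19.2% of all genes. Without replicate 2 ZNF281 was also called, higher, which gives 40% against 34.0% of all genes. ZNF462 maintains heterochromatin and restrains endodermal genes in mouse embryonic stem cells. Its levels were 0.77, 0.82, 1.27 and 1.04 in vitro and 1.24, 1.76, 1.49 and 1.25 in vivo. The log2 ratios of the brightest probe were -0.66, -0.52, -0.34 and -0.24, mean -0.44 ± 0.09 (adjusted p = 0.034 in limma). A second probe was also called, at -0.35 ± 0.07 (adjusted p = 0.038), and the remaining probe read -0.02 ± 0.05. On slide 58 alone the mean ratio was -0.20 (adjusted p = 0.20), and on slide 61 it was -0.68.

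ZNF281, a repressor of Nanog in mouse stem cells, stood just outside the threshold at 0.52 ± 0.12 (adjusted p = 0.051 in limma). Its ratios were 0.61, 0.12, 0.80 and 0.54, lowest in replicate 2. It was called higher in several other fits, among them the deposited ratios (adjusted p = 0.048) and the fit without replicate 2 (adjusted p = 0.0078). It was not called without replicate 1 or without replicate 4, where calls over all genes were 3.71% and 2.47%. Another tested probe of ZNF281 read 0.15 and was not called. ZNF148, which binds GC-rich promoters, had 0.18 ± 0.11, ZNF296, a Klf4 partner in mouse stem cells, -0.11 ± 0.12, and ZNF322A -0.06 ± 0.09. ZNF143, ZNF217, ZNF398, ZNF423, ZNF521, ZNF703 and ZNF750 were not tested, and ZNF423 and ZNF521 were detected on no array.

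The imprinting list had 3 members on the array, and ZNF331, ZNF202 and ZNF445 contributed 1 tested gene, which was called with or without replicate 2. ZNF331, imprinted in humans and coding a KRAB protein, had levels of 1.73, 1.50, 2.30 and 1.87 in vitro and 1.90, 2.82, 2.48 and 2.22 in vivo. Each replicate was lower in vitro. Its ratios of -0.39, -0.67, -0.45 and -0.46 averaged -0.49 ± 0.07 (adjusted p = 0.014 in limma), with -0.27 on slide 58 and -0.72 on slide 61. The call was lost with median centring in place of loess (adjusted p = 0.059). ZNF445, which guards imprints in humans and mice, was detected on no array, and no allele was measured.

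The members were also divided by whether the human protein carries a KRAB box, from general knowledge and after the values of the called genes had been seen, so the division is described and not tested. Of 79 tested KRAB genes 6 were called higher and 2 lower, and of 82 without the box 3 were called higher and 9 lower. The shares called higher and lower were 7.59% and 2.53% with the box, 3.66% and 11.0% without it, and 8.1% and 11.1% over all genes. The called KRAB genes were ZNF677, ZNF34, ZNF75D, ZNF79, ZNF181 and ZNF567, higher, and ZNF7 and ZNF331, lower. At unadjusted p under 0.05 the split was less uneven, with 16 higher and 10 lower with the box and 15 and 17 without it. In either direction these were 32.9% with the box and 39.0% without it, against 35.5% of all genes.

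The class medians lay close together, at 0.033 with the KRAB box and -0.051 without it. By replicate they were 0.055, -0.13, 0.13 and -0.0042 with the box and 0.0096, -0.025, -0.0063 and -0.059 without it. In replicate 2 the KRAB genes were thus the lower class, and in replicates 1, 3 and 4 the higher. On slide 58 the medians were 0.029 and 0.033, and on slide 61 they were 0.010 and -0.069. Without replicate 2, 18 KRAB genes were called higher and 5 lower, and 9 and 15 of those without the box, where 14.9% of all genes were higher and 19.2% lower. With the replicate block the counts were 14 and 6, and 11 and 13, where 12.8% of all genes were higher and 16.2% lower. Median centring in place of loess left 3 higher and 1 lower with the box, a class median of -0.016, and 3 higher and 10 lower without the box. It called 6.01% of all genes higher and 10.7% lower.

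**Figure D5:**
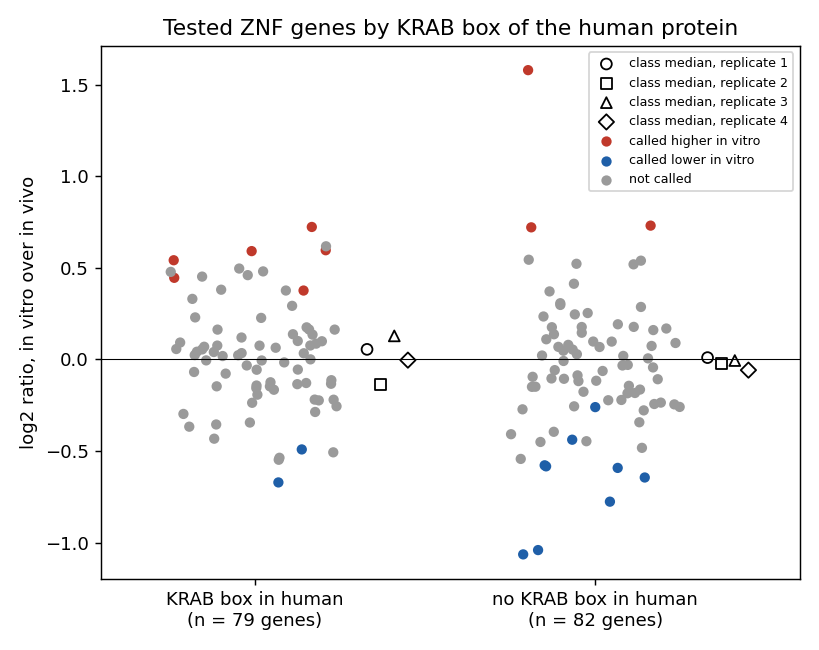
Log2 ratio, in vitro over in vivo, of the tested ZNF genes with (79) and without (82) a KRAB box in the human protein, 1 point per gene, and beside them the class median in each replicate. Of the called points above 0, 6 belong to the KRAB class and 3 to the other, and of those below 0, 2 and 9.

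Cofactors through which KRAB zinc fingers silence, with the NuRD complex and the DNA and H3K9 methyltransferases, gave 27 tested genes of 31 on the array. TRIM28, which the KRAB box binds, had ratios of -0.24, 0.32, -0.74 and -0.31, mean -0.24 ± 0.17 (adjusted p = 0.46 in limma). SETDB1 had -0.19 ± 0.14 (adjusted p = 0.47). For both, replicate 2 was above 0 and the others below. Of the list 7 fell and 1, the H3K9 methyltransferase SUV39H2 (0.56 ± 0.10), rose, 29.6% called against 19.2% of all genes. Without replicate 2, 8 were lower and 3 higher, 40.7% against 34.0%. The falls included the NuRD members HDAC1 (-0.93 ± 0.14), MTA2 (-0.77 ± 0.07), CHD4 (-0.57 ± 0.06) and RBBP4 (-0.54 ± 0.09). Other tested NuRD members were not called, namely RBBP7 (0.53 ± 0.19), MBD3 (0.0018), CHD3 (-0.03), GATAD2A (-0.05) and HDAC2 (-0.14). HDAC2 read 0.33 on slide 58 and -0.60 on slide 61. The H3K9 methyltransferase EHMT1 (-0.53 ± 0.08) and the DNA methyltransferases DNMT3A (-0.75 ± 0.11) and DNMT3B (-0.40 ± 0.09) also fell. Of the 3 tested probes of DNMT3A, only the brightest was called. DNMT1, with 2 probes on the array, was not tested. DNMT3B was lower on slide 58 (-1.08) and higher on slide 61 (0.27). CHD4 is a target of ZNF410 in human erythroid cells, and ZNF410 itself had a ratio of -0.04 ± 0.06 (adjusted p = 0.75).

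By neighbour order in the ARS-UCD2.0 annotation, a description also chosen after the data were seen, 137 members lay in 40 runs with at most 3 other protein-coding genes between neighbours. Of the 89 tested genes in runs, 4 were called higher and 5 lower, with a median ratio of -0.0060. Of the 75 tested genes outside runs, 5 were called higher and 6 lower, with a median of 0.0055. The shares were 4.49% and 5.62% in runs and 6.67% and 8% outside them, against 8.1% and 11.1% of all genes. Without replicate 2 the counts were 16 and 10 in runs and 13 and 10 outside, 29.2% and 30.7% called against 34.0% of all genes. The largest run held 13 members, from ZNF565 to ZNF345, of which 12 were tested. In that run ZNF567 was called, 8 ratios lay above 0, and the median was 0.13. Without replicate 2, 5 of the 12 were called higher and 1 lower. The neighbours ZNF34 and ZNF7 were called in opposite directions.

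Other groups were taken by symbol prefix alone, were small, and need not hold only relatives of the ZNF genes. Of 20 tested ZBTB genes, 1 was called higher and 1 lower, 10% against 19.2% of all genes. Of 10 ZFP genes 1 was higher and 2 lower (30%), of 8 KLF genes none was higher and 3 lower (37.5%), and of 8 ZSCAN and ZKSCAN genes none was called by limma, with 1 at unadjusted p under 0.05. Without replicate 2 the counts higher and lower were 2 and 2, 1 and 4, 0 and 3, and 1 and 1 in that order. The shares called were then 20%, 50%, 37.5% and 25%, against 34.0% of all genes. Those called included ZFP36, ZFP36L1, ZFP36L2 and ZBTB8OS, placed here by prefix only. None of these differences from the ZNF genes was tested.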

How the data were processed

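Total RNA from blastocysts was amplified and labelled with Cy3 and Cy5, per the labels' protocols. For each array the authors deposited a scanner table with the raw spot intensity and local background intensity of both dyes, not background corrected per the file headers, and a table of processed log2 ratios. Set against the scanner values, all 8 columns of deposited log2 ratios have in vitro as numerator, with medians from -0.0038 to 0.0013. How the authors normalized them was not stated in the sources used.

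Foreground means and background medians were corrected by normexp (offset 50) and normalized by loess within arrays, giving the 1425 control spots no weight (limma 3.58.1, R 4.3.3). The 2 arrays of a replicate number, whose deviations correlated at 0.70 to 0.89 with each other and at most at 0.15 with any other number, were averaged, giving n = 4. Tests were two-sided lmFit and eBayes (prior df 2.01), checked on simulated data. Array number and signal over background limit the precision. The per-array ratios correlated at 0.98 or more with the deposited ones.

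Named are up to 12 largest rises and 12 largest falls among called ZNF genes with 1 direction on all 8 arrays, the tested ZNF genes of the role lists, the 5 highest levels in each kind, and called cofactors with TRIM28 and SETDB1. ZNF382, ZNF583 and the genes named for markers or neighbours fall outside this rule and were chosen after their values were seen. Members and lists were chosen with earlier results of these data known. Symbols come from a platform annotation that can be old. Files name no genome build, so no coordinates are given. Alternatives covered background, normalization, filters, the deposited ratios, the replicate block, single slides, an intensity trend, adjustment over genes and each replicate left out. Plots used matplotlib 3.10.9 in Python 3.11.15.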

Additional observations from a re-analysis of the deposited data

Results flagged for a closer look

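Of 50 values tested for a replicate far from the other 3, 4 stood out, where chance gives about 1 in 20. ZNF345 had a log2 ratio of -1.61 in replicate 2, with the others between -0.13 and 0.12. ZNF516 had -0.999 in replicate 2, with the others between -0.02 and 0.09. The 2 arrays of that replicate differed, at -1.41 on slide 58 and -0.59 on slide 61. Their in vivo signals were 1262 and 174. ZNF518A had 0.41 in replicate 2, with the others between -0.04 and -0.0034. ZNF296 had -0.51 in replicate 3, with the others between 0.01 and 0.04. Replicate 2 was the farthest from the median of the 4 for 95 of the 164 tested ZNF genes (57.9%) and for 58.3% of all tested genes. Its ratio reached 2-fold in 3 ZNF genes upward and 7 downward.

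Among the ZNF genes called or named by rule, the arrays of the 2 slides lay wholly on opposite sides of 0 for ZNF410 and ZNF575. ZNF410 averaged 0.18 on slide 58 and -0.27 on slide 61. ZNF575 averaged -1.13 on slide 58 and 0.60 on slide 61. The difference between slides was not tested for either gene. Over the whole family, genes outside the rule included, such opposition was seen in 8 of the 164 tested ZNF genes (4.88%) and in 11.2% of all tested genes.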

How the results depend on the processing

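In sizes and direction, the 20 called ZNF genes kept their sign under the alternatives run, except ZNF575, which read 0.60 within slide 61. Of the 20, 19 stayed called with the deposited ratios, 13 with median centring and 18 with the replicate block. With the replicate block, 26 ZNF genes were higher and 19 lower (29 and 21 probes), 14 and 6 of them in the KRAB class, with 2 cofactors higher. Of all genes, 1307 (12.8%) were then higher and 16.2% lower. Within slide 58, 29 and 20 ZNF genes, 37 and 21 probes and 13 and 7 KRAB genes were higher and lower, with 4 cofactors higher. Of all genes, 1404 (13.8%) were higher and 1794 (17.6%) lower. Within slide 61, 19 ZNF genes, 22 ZNF probes and 5 KRAB genes were lower, where 15.3% of all genes were lower and 12.8% (1302) higher. The KRAB genes lower were 1 without the filter on dim probes, 1 with an intensity trend and 4 with adjustment over genes. Of all genes, 5.96% were lower without the filter and 10.9% with the trend. Median centring gave 3 and 1 KRAB genes, and 0 and 4 cofactors, higher and lower, with 2 and 11 at unadjusted p under 0.05. It called 6.01% of all genes higher and 10.7% lower. In the class without KRAB, genes called higher were 11 with the replicate block, 15 within slide 58, 7 within slide 61 (14 lower), 6 with adjustment over genes, and 5 each with the deposited ratios, the trend and probes detected in both channels. Of all genes, 7.83% were higher with the deposited ratios, 8.35% with the trend and 9.27% with probes detected in both channels. The median ratio of the class without KRAB was -0.087 with median centring, -0.019 without the filter and 0.033 within slide 58.

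Leaving out each replicate in turn with limma gave 0 to 29 ZNF genes higher and 0 to 20 lower, 0 to 34 and 0 to 22 ZNF probes, 0 to 18 and 0 to 5 KRAB genes, and 0 to 9 and 0 to 15 without KRAB. For cofactors it gave 0 to 3 and 0 to 8, and for all genes 120 to 1514 and 132 to 1952. Unadjusted p under 0.05 then held for 16 to 45 ZNF genes higher and 18 to 33 lower, and for 1 to 4 cofactors higher and 7 to 13 lower. In these fits, whose cause of change was not tested beyond the fewer samples, most counts were highest without replicate 2. Signal close to the negative controls limits what 94 untested genes can show.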
